A study of Homo sapiens with 6 samples.

Results

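The genes described here are 10 members of the AP-1 and immediate early group: FOS, FOSB, FOSL1, FOSL2, JUN, JUNB, JUND, ATF3, EGR1 and IER2. They were chosen by gene symbol from the 26490 symbols of the deposited count table. All 10 were among the 13832 genes that passed the filter on low counts. RNA-seq was done on cells labelled SW403, an established human colon adenocarcinoma cell line, in 2 groups of 3 libraries. The control group is labelled WT and has normal IRS2 expression, and the other group is labelled IRS2_knockdown. The library names are DMEM_NS for control and DMEM_IRS2KO for knockdown, so the labels differ between knockdown and KO. Both groups grew for 24 h in DMEM with 10% fetal bovine serum and received no treatment. How IRS2 was lowered, and whether a group came from 1 clone or a pool of cells, is not given in the sources used here. The sample titles number the libraries as biological replicates, but nothing says that they came from separately made lines. The p-values therefore set the difference between the groups against the spread between these cultures, and not against that between separately made lines. IRS2 encodes an adaptor protein that carries signals from the insulin and IGF1 receptors to the PI3K and ERK pathways.

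AP-1 is a dimer of basic leucine zipper proteins. FOS proteins must pair with a JUN protein to bind DNA, while JUN proteins can also pair with each other or with ATF proteins. Immediate early genes such as FOS, JUN, EGR1 and IER2 are transcribed within minutes of growth factor stimulation without new protein synthesis, and most of their mRNAs decay quickly. In cells growing steadily in serum their level is a steady state and not the peak that follows stimulation. Whether these cells, grown for 24 h, had reached that state was not measured. In the gut epithelium AP-1 is known for its part in proliferation and in tumours driven by ERK and Wnt signalling.

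The control libraries held 11816973 to 12585013 counts and the knockdown libraries 14329348 to 18114656, so every knockdown library was deeper. IRS2 was at 32.4, 34.8 and 32.2 CPM, counts per 1000000 counts of the library, in the control libraries. In the knockdown libraries it was at 13.0, 12.3 and 11.9 CPM. The decrease was 2.62-fold as estimated by edgeR, which also rescales the libraries. Of 12 colon epithelium markers, 6 passed the filter. KRT8 and KRT18 were each above 1000 CPM in both groups and CDX2 was at 77.7 ± 2.16 CPM in control (SD, n = 3). KRT19, EPCAM and VIL1, which also passed, were at 230 ± 11.4, 40.2 ± 1.43 and 4.34 ± 0.932 CPM in control (SD, n = 3). KRT20, CDX1 and CEACAM5 had no count in any library, and CDH1, the E-cadherin gene, was at 0.265 ± 0.230 CPM in control and 0.0991 ± 0.0256 CPM with knockdown (SD over 3 libraries each). The mesenchymal filament gene VIM was at 1172 ± 18.1 CPM in control (SD, n = 3). LGALS4 and GPA33 were at most 0.133 CPM on average in either group. The libraries therefore carried only part of the colon epithelial marker set. The markers at or near 0 go against the labelled tissue. The other 6 were detected, VIL1 at a low level, and passing a filter on low counts does not by itself show the tissue. Whether the cells are SW403 was not tested. Immune markers summed to 0.907 to 1.23 CPM and endothelial markers to 0.339 to 0.717 CPM over all 6 libraries. The 6 fibroblast markers summed to 27.6, 10.4 and 8.97 CPM in control libraries 1, 2 and 3 and to 5.80 to 7.29 CPM in the knockdown libraries. None of the 6 was at 0 in all libraries, whereas the endothelial genes PECAM1 and CDH5 were. COL1A1 was at 15.3, 5.73 and 5.67 CPM in control libraries 1, 2 and 3 and at 3.63 to 4.26 CPM in the knockdown libraries. Control library 1 stands apart in both values. Leaving out control replicate 1, the library with the highest sum, gave log2 fold changes of -0.71 for JUN, 0.44 for EGR1, 0.26 for FOSL1, 0.23 for JUNB and -0.27 for JUND, all still past the threshold.

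The promoters of several of these genes carry short elements through which growth factor signals are known to act. RefSeq start windows (GRCh38.p14, 250 bases before to 50 after each start) were matched for 9 of the 10 genes, with 10 windows in all. FOSL1 had no entry. The stretches below are shown so that the elements can be compared within the FOS and JUN families and between JUN and ATF3, and because EGR1 rose most. Capitals mark cyclic AMP response element core sites (TGACG or CGTCA), TATA boxes (TATAAA), serum response CArG boxes, and the octamer TGACATCA known from the JUN promoter. All are written 5′ to 3′ on the gene's strand.
FOS, chr14:75278754-75278810, plus strand: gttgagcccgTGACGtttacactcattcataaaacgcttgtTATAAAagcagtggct
FOSB, chr19:45467926-45467981, plus strand: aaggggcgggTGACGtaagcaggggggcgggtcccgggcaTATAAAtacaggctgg
EGR1, chr5:138465339-138465427, plus strand: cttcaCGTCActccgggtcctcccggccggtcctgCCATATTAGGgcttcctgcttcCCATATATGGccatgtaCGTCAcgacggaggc
JUN, chr1:58784097-58784180, minus strand: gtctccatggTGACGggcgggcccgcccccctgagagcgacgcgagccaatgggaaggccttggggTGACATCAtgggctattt
JUNB, chr19:12791346-12791470, plus strand: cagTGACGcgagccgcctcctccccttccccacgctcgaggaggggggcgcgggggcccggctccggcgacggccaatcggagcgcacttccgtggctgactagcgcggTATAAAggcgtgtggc
JUND, chr19:18281694-18281718, minus strand: aaatgagcgaCGTCAcccgcaccca
ATF3, chr1:212565274-212565301, plus strand: acctatgataTGACATCAtatggccact

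In FOS and FOSB the core site lies 64 and 60 bases before the start and the TATA box 33 and 30 bases before it, so the spacing is nearly the same in both. FOSL2, whose stretch is not shown, has core sites 201 and 66 bases before its start and no TATAAA in its window. EGR1 has 2 CArG boxes, 105 and 83 bases before its start. A core site on either strand was found in 8 of the 9 genes (8 of their 10 windows), against 24.6% of 35116 windows of the same length. The windows compared were not matched for base composition. A CArG box was found in EGR1 alone among the 9, against 1.29% of all windows. The letters TATAAA were found on the gene's strand in 4 genes and, at any position, in 7.33% of all windows. They lie 33, 30 and 31 bases before the start in FOS, FOSB and JUNB. In the second window of ATF3 they lie 230 bases before it, far from that position. JUN and ATF3 share the octamer TGACATCA, which was searched for on both strands after the sequences had been read and is in 2.61% of all windows. The full element TGACGTCA, which contains the core site on both strands, was found in JUND alone, 200 bases before its start and outside the stretch shown (1.85% of windows). The AP-1 site TGACTCA or TGAGTCA was found in FOSL2 alone (4.95% of windows). The EGR site GCGNGGGCG was found in EGR1 alone (9.43% of windows, both strands) and the ETS site CCGGAAG in IER2 alone (10.3%, both strands). These matches describe the letters only, and a missing match says only that the letters are not in this window.

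In IRS2 knockdown, 5 of the 10 genes passed the test. EGR1, FOSL1 and JUNB rose, and JUN and JUND fell. The other 5, FOS, FOSB, FOSL2, ATF3 and IER2, did not pass. The test was edgeR's quasi-likelihood test, with p-values adjusted over all tested genes by the Benjamini-Hochberg method and a threshold of 0.05. Over all tested genes 38.5% passed, 19.3% higher and 19.2% lower, so 5 of 10 is near the share of the whole transcriptome. The median log2 fold change of the 10 genes was 0.04, against -0.0039 for all tested genes. The CPM values of the groups did not overlap for 7 of the 10 genes, 3 higher and 4 lower, against 48.4% of all tested genes (19.6% higher, 28.8% lower). On TMM-scaled CPM, 3 were higher and 3 lower without overlap, against 47.6% of all tested genes (23.7% higher, 23.9% lower), and FOS was the gene that dropped out. In bulk RNA, a lower level in every cell and fewer cells that express the gene cannot be told apart.

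**Figure D1:**
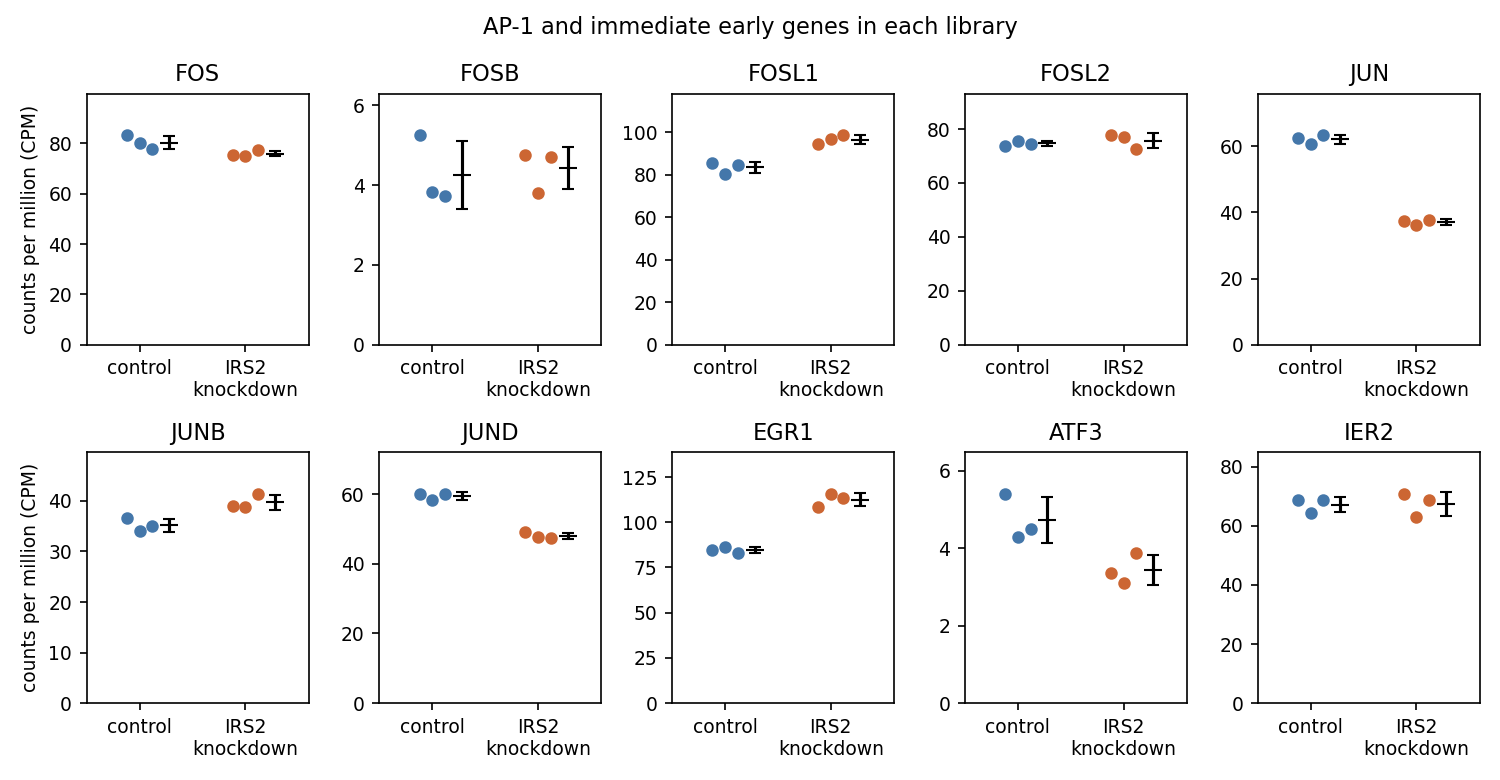
CPM of each of the 10 genes (y axis, from 0) in the 3 control libraries (blue) and the 3 IRS2 knockdown libraries (orange); the black bar is the mean with its SD. JUN lies at 60.7 to 63.3 CPM in control and 36.2 to 37.7 CPM with knockdown, and EGR1 lies at 83.0 to 86.5 and 108.4 to 115.7 CPM.

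The JUN family held the largest fall and moved in both directions. JUN encodes c-Jun, the AP-1 subunit that JNK phosphorylates and that activates its own promoter. Its gene spans chr1:59242517-59249720 (GRCh37, minus strand), and its canonical transcript has 1 exon. JUN was at 62.5, 60.7 and 63.3 CPM in the control libraries and at 37.4, 36.2 and 37.7 CPM in the knockdown libraries. The 3 knockdown values lie close together and far below every control value. Its log2 fold change was -0.71 ± 0.05 (SE), a 39.1% decrease, with an edgeR adjusted p of 1.29e-09. JUN ranked 81 by p-value, and 6.01% of tested genes fell by more.

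JUND encodes the JUN protein that is the least inducible of the 3 and is known for restraining growth in several cell types. The gene has a single exon at chr19:18390504-18392432 (GRCh37, minus strand). Its level was 60.1, 58.3 and 60.0 CPM in control and 49.0, 47.7 and 47.4 CPM with knockdown, with no overlap. The log2 fold change was -0.28 ± 0.05 (SE; edgeR adjusted p 8.30e-05), a 17.6% decrease.

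JUNB encodes a JUN protein that activates transcription more weakly than c-Jun at many sites and can oppose it. It also has 1 exon, at chr19:12902300-12904129 (GRCh37, plus strand). JUNB was at 36.5, 34.1 and 35.0 CPM in control and 38.9, 38.8 and 41.4 CPM with knockdown. All knockdown values were above all control values, but by a narrow margin. JUNB had a log2 fold change of 0.21 ± 0.06 (SE; edgeR adjusted p 0.00647), a 15.4% increase. The annotated span of HOOK2, on the opposite strand, covers the 1830 nt of JUNB, though the canonical transcripts share 0 exonic bases. How counting treated strand is not given in the sources used here. HOOK2 itself was at 29.9 ± 1.37 CPM in control and 29.9 ± 0.630 CPM with knockdown (SD over 3 libraries each).

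Within the JUN family the share of JUN fell and that of JUNB rose. These shares are taken within each library, from CPM per kb of canonical transcript, so they do not depend on how libraries were scaled. JUN made up 27.3%, 27.6% and 27.9% of the family sum in control and 19.8%, 19.5% and 19.7% in knockdown. JUNB went from 28.4%, 27.6% and 27.4% to 36.6%, 37.2% and 38.5%. The ratio of JUNB to JUN per length was 1.04, 0.9997 and 0.983 in control and 1.85, 1.91 and 1.95 in knockdown. In control both genes stood at nearly the same level per length, and in knockdown JUNB was higher in every library. JUND remained the most abundant of the 3, at 44.6 ± 0.259% in control and 42.9 ± 1.002% in knockdown (SD over 3 libraries each). The summed level of the 3 genes was 69.1 ± 1.495 CPM per kb in control and 58.0 ± 0.862 CPM per kb in knockdown (SD over 3 libraries each). JUNB itself went only from 19.2 ± 0.687 to 21.7 ± 0.792 CPM per kb (SD over 3 libraries each). Part of its gain in share is therefore the fall of the sum. No test was made of these sums and shares, because the genes were chosen with their results known.

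**Figure D2:**
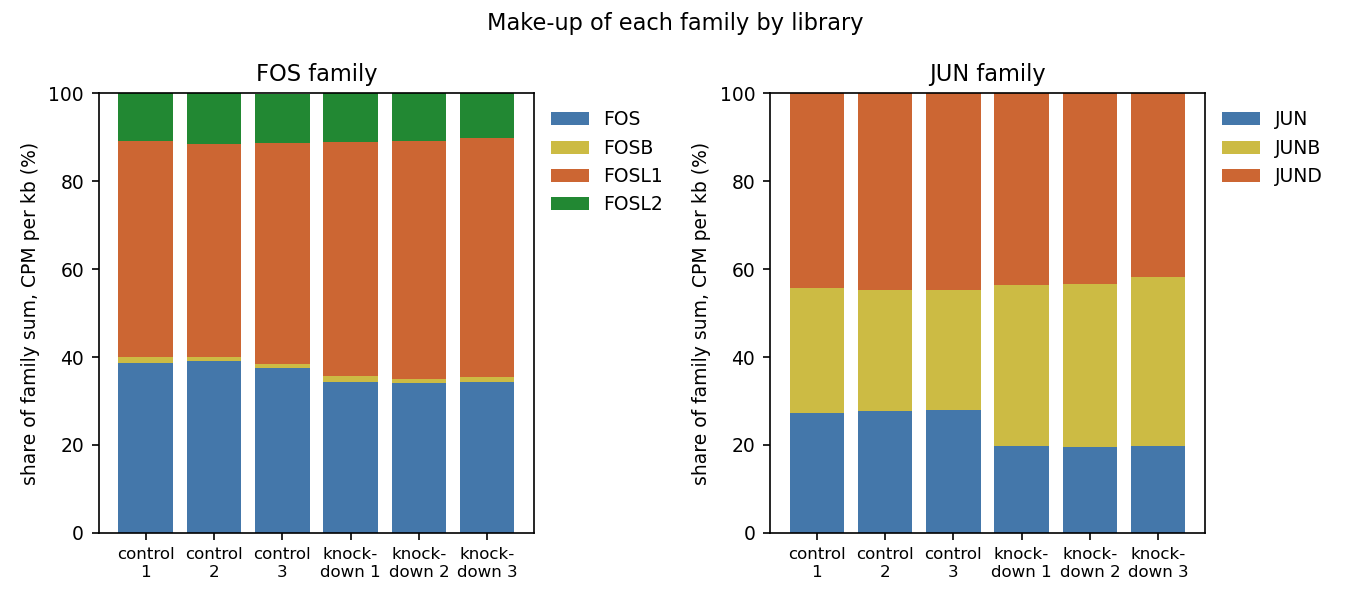
Share of each gene (y axis, percent) in the summed CPM per kb of its family, for the FOS family (left) and the JUN family (right), with 1 stacked bar per library. The JUNB band widens from between 27.4% and 28.4% in control to between 36.6% and 38.5% in knockdown, while the JUN band narrows to between 19.5% and 19.8%.

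In the FOS family, 1 of 4 genes passed, against 38.5% of all tested genes. FOSL1 encodes FRA-1, a FOS protein without the C-terminal transactivation domain of c-Fos, which ERK stabilises and which is known from invasive carcinoma cells. The gene lies at chr11:65659520-65668044 (GRCh37, minus strand) and its canonical transcript has 4 exons. FOSL1 was at 85.4, 80.4 and 84.7 CPM in control and 94.6, 96.8 and 98.6 CPM with knockdown. The groups did not overlap. Its log2 fold change was 0.24 ± 0.04 (SE; edgeR adjusted p 0.000115), an 18.3% increase.

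FOS encodes c-Fos, the founding immediate early protein, at chr14:75745529-75748933 (GRCh37, plus strand). It was at 83.2, 80.1 and 77.8 CPM in control and 75.4, 75.2 and 77.3 CPM with knockdown. The lowest control library was barely above the highest knockdown library, and with TMM scaling the groups overlapped. FOS had a log2 fold change of -0.05, with a 95% interval from -0.14 to 0.04 and an edgeR adjusted p of 0.381.

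FOSL2 encodes FRA-2, at chr2:28615315-28640184 (GRCh37, plus strand). Its levels were 73.9, 75.7 and 74.4 CPM in control and 77.7, 76.9 and 72.6 CPM with knockdown, with overlap. FOSL2 had a log2 fold change of 0.05 (95% interval -0.04 to 0.14, edgeR adjusted p 0.397). For both FOS and FOSL2 the interval leaves room for a change of about 0.14 on the log2 scale and not for one as large as that of JUN.

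FOSB, at chr19:45971253-45978437 (GRCh37, plus strand), encodes a c-Fos relative known for a long-lived splice form in neurons. It was scarce, with 44 to 66 counts in control and 65 to 85 counts in knockdown libraries, which are deeper. Its level was 5.24, 3.82 and 3.72 CPM in control and 4.75, 3.81 and 4.69 CPM with knockdown, and the groups overlapped. The log2 fold change was 0.08 with a wide 95% interval, -0.29 to 0.44 (edgeR adjusted p 0.772). Without control replicate 3 it was -0.0084, without control replicate 2 it was 0.0071, and without control replicate 1 it was 0.25, none of them past the threshold. The span of ERCC1 on the opposite strand covers all 7185 nt of FOSB, with 0 exonic bases shared by the canonical transcripts. ERCC1 was at 83.1 ± 5.65 CPM in control and 83.5 ± 2.83 CPM with knockdown (SD over 3 libraries each).

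Within the FOS family the share of FOSL1 was higher and that of FOS lower in every knockdown library than in every control library. FOSL1 made up 49.1%, 48.4% and 50.4% of the family sum per length in control and 53.3%, 54.1% and 54.3% in knockdown. FOS made up 38.7%, 39.0% and 37.4% and then 34.4%, 34.0% and 34.4%. FOSL1 and FOS thus held most of the FOS family signal in both groups, and FOSB held 1.13 ± 0.199% in control (SD, n = 3). The family sum was 99.5 ± 2.35 CPM per kb in control and 105.4 ± 1.26 CPM per kb in knockdown (SD over 3 libraries each).

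ATF3 encodes a stress-induced basic leucine zipper protein that pairs with JUN proteins and often represses. The gene lies at chr1:212738676-212794119 (GRCh37, plus strand). With 48 to 70 counts per library it was, beside FOSB, the least expressed of the 10. It was at 5.403, 4.30 and 4.49 CPM in control and 3.35, 3.11 and 3.86 CPM with knockdown, without overlap. The log2 fold change was -0.43 with a 95% interval from -0.78 to -0.07 and an edgeR p of 0.0223 before and 0.0562 after adjustment, so it did not pass. It passed in 6 of 19 alternative analyses, among them the one without knockdown replicate 3 (-0.53, edgeR adjusted p 0.0386), and its adjusted p ranged from 0.0376 to 0.227 over the 19.

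EGR1 encodes a zinc finger factor whose promoter binds SRF and its ERK-driven partners at the CArG boxes shown above. It lies at chr5:137801168-137804992 (GRCh37, plus strand) and has 2 exons. EGR1 was at 84.7, 86.5 and 83.0 CPM in control and 108.4, 115.7 and 113.4 CPM with knockdown. Every knockdown library was well above every control library. The log2 fold change was 0.44 ± 0.04 (SE; edgeR adjusted p 9.57e-08), a 35.7% increase and the largest rise of the 10 genes. Of all tested genes, 4.92% rose by more.

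IER2, at chr19:13261225-13265725 (GRCh37, plus strand), encodes a small nuclear protein induced together with FOS and EGR1. It was at 68.6, 64.3 and 68.6 CPM in control and 70.8, 62.9 and 68.7 CPM with knockdown, and the groups overlapped. Antisense RNA genes overlap the spans of both IER2 and FOSL2, and whether counting separated the strands is not given in the sources used here. An RNA gene on the same strand also overlaps FOSL2, and one on the opposite strand overlaps ATF3. IER2 had a log2 fold change of 0.04 (95% interval -0.07 to 0.14, edgeR adjusted p 0.623). EGR1 rose while FOS and IER2, which are known to respond to the same signals, showed no difference past the threshold. The differences between these genes were not tested.

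**Figure D3:**
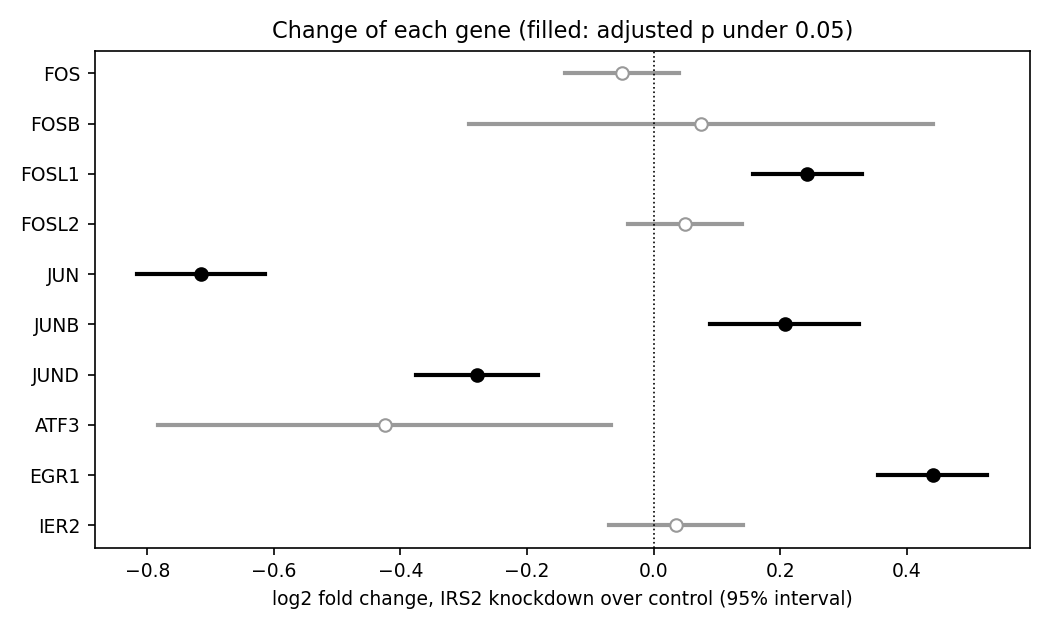
Log2 fold change of each gene in IRS2 knockdown over control (x axis) with its 95% interval from edgeR; filled black symbols have an adjusted p under 0.05. JUN (-0.71) and JUND (-0.28) lie below 0, and JUNB (0.21), FOSL1 (0.24) and EGR1 (0.44) lie above it.

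Levels can be compared between genes only per transcript length. In control, the order in CPM per kb was FOSL1 (49.1 ± 1.59), FOS (38.2 ± 1.29), IER2 (31.8 ± 1.16), JUND (30.8 ± 0.527) and EGR1 (27.0 ± 0.548; SD over 3 libraries each). JUNB (19.2 ± 0.687), JUN (19.1 ± 0.417) and FOSL2 (11.1 ± 0.140) followed, with ATF3 (2.44 ± 0.305) and FOSB (1.13 ± 0.226) last (SD over 3 libraries each). Neighbours overlapped between libraries in 2 places, IER2 with JUND and JUNB with JUN. In knockdown FOSL1 was again first at 56.8 ± 1.18, while EGR1 had moved up to 35.9 ± 1.19, where its values overlapped those of FOS at 36.1 ± 0.546 (SD over 3 libraries each). JUN had moved down to 11.4 ± 0.252 and overlapped FOSL2 at 11.3 ± 0.404 (SD over 3 libraries each). The order rests on 1 canonical transcript per gene.

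**Figure D4:**
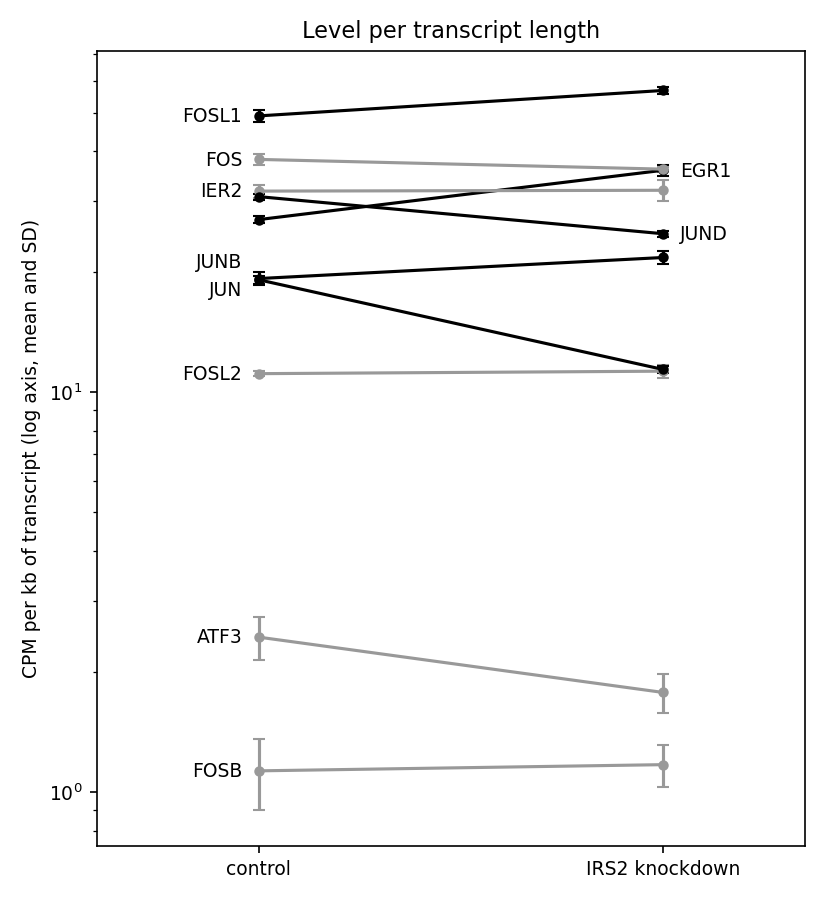
Mean level of each gene in CPM per kb of canonical transcript (y axis, log scale) in control and IRS2 knockdown, with SD bars over 3 libraries; black lines join genes with an adjusted p under 0.05 and grey lines the others. JUNB and JUN start together at 19.2 and 19.1 and part to 21.7 and 11.4.

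The genes differ in structure. JUN, JUNB and JUND have 1 exon, EGR1 and IER2 have 2, and FOS, FOSB, FOSL1, FOSL2 and ATF3 have 4 in the canonical transcript. ATF3 has the longest span, 55444 nt, and JUNB the shortest, 1830 nt. AU-rich elements in the 3′ untranslated region, which bind decay factors such as ZFP36 proteins, were counted in the canonical transcripts as ATTTA and as the longer TTATTTATT. FOS holds 5 copies of ATTTA in 806 nt. As many or more were found in 7.97% of 1945 genes whose region is within 20% of that length. FOS also holds the longer word, found in 5.24% of those genes. IER2 holds 0 copies of ATTTA in 1053 nt, and EGR1, FOSL1 and JUND hold 1 each. As many or more were found in 80.9%, 71.5% and 66.7% of the genes of similar length to EGR1, FOSL1 and JUND. FOSB and ATF3 hold 3 each (as many or more in 69.1% and 44.1%) and JUNB holds 2 (26.2%). FOSL2 holds 9 copies of ATTTA in 4869 nt, and 60.0% of 1349 genes of similar length have as many or more. It also holds the longer word, as do 21.1% of those genes. JUN, with 3 copies in 1284 nt, is close to the middle of its 2192 genes of similar length, of which 45.7% have as many or more.

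By profile over the 6 libraries, the 3 genes nearest to EGR1 among 10441 others averaging 100 counts or more were FAM83H, KCNK5 and SLC12A7. Their root mean square differences from EGR1 were 0.0303, 0.0305 and 0.0305 in centred log2 CPM. Those nearest to JUN were LTBP2, BRD3 and PLAT, at 0.0294, 0.0294 and 0.0333. With 2 groups, these profiles consist mainly of the difference between the groups.

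The wider pathway was described with 5 gene lists written from general knowledge. Among 13 other AP-1 basic leucine zipper genes, all tested, 3 passed (23.1%, against 38.5% of all tested genes) and all 3 fell. MAF, whose protein binds extended AP-1 sites, was at 13.7, 14.0 and 13.1 CPM in control and 4.33, 3.52 and 3.53 CPM with knockdown (log2 fold change -1.82 ± 0.12 SE, edgeR adjusted p 1.12e-09). ATF7, which encodes a JUN partner, fell by 0.26 on the log2 scale. The other 10, among them ATF2, BATF and the small MAF genes MAFF, MAFG and MAFK, did not pass. The list median was -0.01.

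Of 27 other immediate early genes, 25 were tested and 12 passed (48.0%, against 38.5% of all tested genes), 8 higher and 4 lower (19.3% and 19.2% of all tested genes), with a median of 0.12. BTG2, an antiproliferative gene, rose from 5.39 ± 0.570 to 8.44 ± 0.531 CPM (SD over 3 libraries each; log2 fold change 0.68). KLF10, a TGF-beta-induced repressor, rose by 0.31 and ZFP36L1, a decay factor for AU-rich mRNAs, by 0.27 on the log2 scale. CCN2, a matricellular target of YAP and SRF, was at 6.75, 6.37 and 3.64 CPM in control and 1.74, 1.58 and 2.43 CPM with knockdown. All knockdown values of CCN2 were lower, though the control values spread widely (log2 fold change -1.502 ± 0.24 SE, edgeR adjusted p 4.90e-05). Without control replicate 1, the library with the highest fibroblast marker sum, the log2 fold change of CCN2 was -1.35. CITED2, a CBP-binding cofactor, fell by 0.56 and PPP1R15A, a stress gene that restores translation, by 0.33 on the log2 scale. 2 paralogues of EGR1, EGR3 and EGR4, chosen after their values were seen, were scarce. EGR3 was at 5.29 ± 0.345 and 6.16 ± 0.236 CPM (SD over 3 libraries each; adjusted p in edgeR 0.159), and EGR4 rose from 1.15 ± 0.498 to 1.98 ± 0.232 CPM (SD over 3 libraries each; edgeR adjusted p 0.0287). DUSP1 and NR4A1, named in the same way, were at 11.6 ± 2.21 and 10.0 ± 0.374 CPM and at 11.9 ± 0.487 and 12.3 ± 0.721 CPM (SD over 3 libraries each), and their adjusted p-values in edgeR were 0.260 and 0.576.

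Upstream of the immediate early promoters, 20 of 21 kinase and promoter factor genes were tested and 10 passed (38.5% of all tested genes did), 6 higher and 4 lower, with a median of 0.08. MAPK3, which encodes the kinase ERK1, fell from 43.0 ± 1.74 to 31.4 ± 0.192 CPM (SD over 3 libraries each), with an adjusted p of 5.25e-06 in edgeR. Among the RSK kinase genes that ERK activates, RPS6KA1 rose by 0.37 and RPS6KA3 by 0.21 on the log2 scale. RPS6KA2 fell from 3.65 ± 0.337 to 1.30 ± 0.295 CPM (SD over 3 libraries each; log2 fold change -1.46 ± 0.23 SE). SRF, the factor that binds CArG boxes, fell from 66.6 ± 0.969 to 55.9 ± 1.62 CPM (SD over 3 libraries each), a log2 fold change of -0.22 ± 0.05 (SE) with an adjusted p of 0.000683 in edgeR. MAPK8, which encodes the c-Jun kinase JNK1, was at 34.3 ± 0.534 and 33.7 ± 1.65 CPM (SD over 3 libraries each; edgeR adjusted p 0.950) and was named after its value was seen.

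Of 7 genes for corepressors and turnover factors, all tested, 2 rose and 2 fell, each by a small amount, and 38.5% of all tested genes passed. ITCH, a ubiquitin ligase for c-Jun, had a log2 fold change of 0.13 and NAB2, a corepressor of EGR proteins, of 0.17. NAB1, a second EGR corepressor, had a log2 fold change of -0.14 and MEN1, whose product menin binds JunD, of -0.13. These 4 calls were lost when certain single libraries were left out. For ITCH these were control replicate 1 (edgeR adjusted p 0.0894) and knockdown replicate 2 (0.0653). For NAB2 they were control replicate 1 (edgeR adjusted p 0.195), knockdown replicate 2 (0.0819) and knockdown replicate 3 (0.0915). The call of NAB1 was lost without control replicate 3 (edgeR adjusted p 0.137), knockdown replicate 2 (0.0592) or knockdown replicate 3 (0.0740). Among the omissions, that of MEN1 held only without knockdown replicate 3. Over the other 5 omissions its edgeR adjusted p ranged from 0.0567 to 0.2075. Over all 19 alternatives, a stricter threshold among them, the calls of ITCH, NAB2, NAB1 and MEN1 were lost in 4, 10, 5 and 9. With all 6 libraries, the DESeq2 Wald test lost NAB2 (adjusted p 0.140), NAB1 (0.0685) and MEN1 (0.123) and kept ITCH (0.0475).

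Of 29 known AP-1 target genes, 22 were tested and 13 passed (59.1%, against 38.5% of all tested genes), 7 higher and 6 lower, with a median of -0.01. Over all tested genes 19.3% were higher and 19.2% lower. CCND1, the cyclin D1 gene, and TGFB1 rose by 0.51 and 0.55 on the log2 scale. GJA1, the connexin 43 gene, was at 12.6, 13.3 and 12.1 CPM in control and 3.77, 3.69 and 4.08 CPM with knockdown, a log2 fold change of -1.69 ± 0.12 (SE; edgeR adjusted p 2.73e-09). VEGFA fell by 0.57 and VIM by 0.12 on the log2 scale. The metalloproteinase genes MMP1, MMP3, MMP7, MMP9 and MMP10, among the best known AP-1 targets, were too low to be tested, with means of at most 0.386 CPM in either group.

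**Figure D5:**
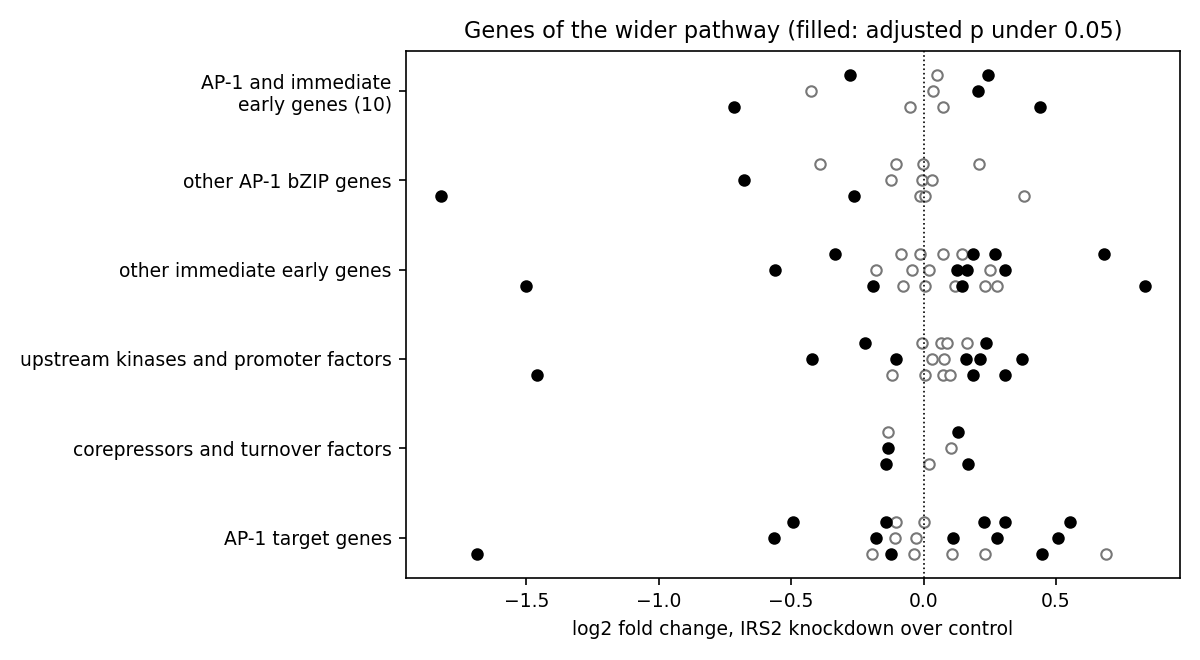
Log2 fold change in IRS2 knockdown over control (x axis) for every tested gene of the 10 and of the 5 wider lists (y axis; rows are spread vertically only to separate points); filled symbols have an adjusted p under 0.05. Filled symbols lie on both sides of 0 in each row except that of the other AP-1 basic leucine zipper genes, where the 3 filled genes lie below 0.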

How the data were processed

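RNA-seq libraries were made from 1000 ng of total RNA with a NEBNext Ultra II kit and PCR, per the labels' protocols. Per the submitters' processing notes, STAR 2.6.1a, Salmon and DESeq2 were used and the build was hg19 (GRCh37). The role of each tool, the annotation and the strand setting are not given in the sources used here. The authors deposited whole-number counts per gene symbol, and a second table of normalized signal, in which 1 constant divides all counts of a library. It lists genes with a summed count of at least 10.

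Counts were tested with edgeR 4.0.16 in R 4.3.3 (TMM factors, filterByExpr, quasi-likelihood test, group only). SE is the absolute log2 fold change over the square root of F. CPM is relative to the total counts of a library. Lengths, exons and coordinates came from GENCODE version 44 lifted to GRCh37, with 1 canonical transcript per gene, and promoter sequences from RefSeq (GRCh38.p14). An exact permutation test of 3 against 3 cannot go below 0.1. Alternatives used DESeq2 1.42.0, limma 3.58.1 (pseudocount 1), other scalings and filters, thinning, a length and GC correction, and omission of each library. The scripts were checked on simulated data. Replicate pairs of a group differed by more than counting error (chi-square per degree of freedom 1.39 to 2.84), and amplified reads are not independent molecules.

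The 10 genes and the lists were chosen with earlier results of these data known. Beyond the 10 and IRS2, the genes named were the 3 of smallest p in each direction past the threshold in each list, and the 3 nearest profiles of the largest rise and fall. Some genes that this rule picks are not reported here. Others are said to be chosen after their values were seen.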

Additional observations from a re-analysis of the deposited data

How the results depend on the processing

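Over 19 alternatives, 183 of 190 values for the 10 genes kept their sign and stayed on the same side of the threshold. The 7 exceptions were FOSB, whose log2 fold change went from 0.08 to -0.0084 without control replicate 3 and ranged up to 0.25 over the omissions of 1 library, and ATF3, which passed in 6 alternatives. The number of the 10 genes past the threshold was 5 or 6, with 3 higher in every alternative. Over all genes the number was 3714 at an adjusted p of 0.01 and at most 5791, against 5329. IRS2 ranged from -1.42 to -1.33. For the 25 genes that the naming rule picks from the lists, 446 of 474 values kept direction and side, and the exceptions were ITCH, NAB1, NAB2 and MEN1. The cause was not tested. Same-numbered libraries had deviations with correlations of 0.04, -0.01 and -0.10, and 1 of 6 libraries correlated best with its own number. No pairing by number was seen, but 3 libraries per group are too few to exclude a weak one. With the replicate block, 4862 genes passed over all genes, 5 of the 10 passed, and the log2 fold changes were -0.71 for JUN, 0.44 for EGR1, 0.24 for FOSL1, -0.28 for JUND and 0.21 for JUNB (edgeR adjusted p at most 0.0132, that of JUNB), and -1.39 for IRS2. FOSB and ATF3 had 44 to 85 counts per library and standard errors of 0.175 and 0.171 on the log2 scale, against 0.04 to 0.06 for the other 8 genes.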
